A study of Homo sapiens with 9 samples.

Results

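The mRNAs of 4 proteins that act on RNA were followed in sorafenib-resistant Huh7 cells: the muscleblind-like proteins MBNL3, MBNL2 and MBNL1, and A1CF, the APOBEC1 complementation factor. The members were the probe sets annotated to these 4 symbols. All 4 genes were found, each with 1 probe set, among 9784 genes measured. They were chosen with their signals already known, so their values are given as a description with no test.

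Muscleblind-like proteins bind RNA through CCCH zinc fingers. They decide which exons are kept or skipped in many mRNAs and also act on polyadenylation and on where mRNAs lie in the cell. MBNL1 and MBNL2 are the members best known from myotonic dystrophy, where expanded repeats in RNA hold them away from their targets, and MBNL3 is the member least found in adult tissues. A1CF is an RNA-binding protein of liver and intestine and a cofactor of the cytidine deaminase APOBEC1, which edits a cytidine of the apolipoprotein B mRNA.

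Huh7 is an established human hepatocellular carcinoma cell line, and sorafenib is an inhibitor of several kinases given in advanced liver cancer. Total RNA was hybridised to 9 transcriptome arrays, 3 from each of 3 groups. Huh7-R-A7 was a clone grown from an individual colony of the resistant pool, Huh7-R was that pool without cloning, and Huh7-S were untreated parental cells. The resistant cells had received weekly 4 h pulses of 10 µM sorafenib over 6 weeks, had then been kept at 6 µM, and were without the drug for 5 to 7 days before use. There was 1 parental line, 1 pool and 1 clone, so the arrays of a group show the spread between cultures, which may be technical, and not between independently derived resistant lines.

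Array medians lay between log2 8.22 and 8.38. Array 1 of Huh7-S stood apart, with a mean absolute distance of 0.27 from the other 2 Huh7-S arrays, against 0.109 to 0.187 for every other array within its group. The descriptions of arrays 2 and 3 of Huh7-R-A7 carry other clone names than A7, although their titles say A7. Hepatocyte markers were read in part. Of 10 such markers 7 were measured, and their mean signal per array was 11.19 to 12.11 in Huh7-R-A7, 11.83 to 12.35 in Huh7-R and 12.89 to 13.80 in Huh7-S. In limma 5 of the 7 fell in the clone and 6 fell and 1 rose in the pool against Huh7-S. Of all genes 24.6% fell and 18.0% rose in the clone, and 26.2% fell and 19.0% rose in the pool. The gene that rose was FGB, at 13.76 to 14.55 in Huh7-R-A7, 14.63 to 15.16 in Huh7-R and 11.82 to 14.16 in Huh7-S. Its difference from Huh7-S was 2.34 in the pool (adjusted p = 0.014, limma) and 1.63 in the clone (adjusted p = 0.058). Albumin (ALB) was at 14.66 to 15.82 in Huh7-R-A7, 14.87 to 15.16 in Huh7-R and 16.44 to 17.28 in Huh7-S. APOA1 was below log2 6, the limit that the study's methods treated as noise, at 4.29 to 4.53 in Huh7-R-A7 and 4.64 to 4.71 in Huh7-R, and lay at 6.04 to 6.39 in Huh7-S. SERPINA1 was likewise at 4.99 to 5.24 in Huh7-R-A7 and 5.32 to 5.75 in Huh7-R, and at 6.66 to 7.62 in Huh7-S. Of 8 fibroblast markers 2 were measured, COL1A2 and LUM, and both rose in clone and pool. Their mean was 7.73 to 7.90 in Huh7-R-A7, 8.32 to 8.61 in Huh7-R and 5.28 to 5.48 in Huh7-S. On every Huh7-S array both were below log2 6, COL1A2 at 5.34 to 5.59 and LUM at 5.22 to 5.43. No probe set of the deposited table failed the study's filter at that limit, so both were in it only through resistant arrays. Their rise was bound up with that filter. In the same way APOA1 and SERPINA1 were in the table only through Huh7-S arrays. Their falls, counted above in clone and pool, were bound up with the filter too. Of 8 leukocyte and endothelial markers only lysozyme (LYZ) was measured, at 6.69 to 7.45 in Huh7-R-A7, 7.64 to 8.30 in Huh7-R and 7.56 to 11.67 in Huh7-S. The part of these marker differences in the results below was not tested.

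In the RefSeq annotation of GRCh38.p14, MBNL3 lies on the X chromosome, A1CF on chromosome 10, MBNL2 on chromosome 13 and MBNL1 on chromosome 3. RefSeq promoter windows held 4 start sites of MBNL3, 1 of A1CF, 2 of MBNL2 and 3 of MBNL1. The 250 bases before the start are shown for A1CF and for the outermost start of MBNL3, because these were the members with lower signal in resistant cells. The A1CF window is chr10:50885628-50885877 and the MBNL3 window chrX:132490036-132490285, both on the minus strand, and each is written 5′ to 3′ with its last base next to the start.
A1CF: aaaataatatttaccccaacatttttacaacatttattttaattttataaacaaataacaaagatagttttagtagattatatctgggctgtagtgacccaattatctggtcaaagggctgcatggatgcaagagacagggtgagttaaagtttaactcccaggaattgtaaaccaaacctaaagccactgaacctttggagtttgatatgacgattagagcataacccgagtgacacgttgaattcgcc
MBNL3: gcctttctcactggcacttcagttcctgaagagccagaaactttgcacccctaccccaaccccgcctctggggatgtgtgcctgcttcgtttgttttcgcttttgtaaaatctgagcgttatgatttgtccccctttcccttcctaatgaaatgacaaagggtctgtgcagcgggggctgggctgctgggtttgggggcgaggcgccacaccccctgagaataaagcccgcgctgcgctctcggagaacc
A hepatocyte nuclear factor 4 motif, CAAAGTCCA, was searched for on both strands. It was in 114 of 35116 RefSeq promoter windows of this length (0.325%) and in none of the 10 windows of the 4 genes, so neither sequence has letters in capitals. This describes letters only.

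MBNL3 was lower in both resistant groups, and far lower in the clone than in the pool. Its signal was log2 6.80, 7.29 and 7.41 on the Huh7-R-A7 arrays, 10.72, 10.72 and 10.71 on the Huh7-R arrays, and 12.39, 11.53 and 11.49 on the Huh7-S arrays. The 3 groups did not overlap, and the lowest pool array lay 3.30 log2 units above the highest clone array. All clone arrays were still above the noise limit of log2 6. The group means were 7.17 ± 0.33 in Huh7-R-A7, 10.72 ± 0.005 in Huh7-R and 11.81 ± 0.51 in Huh7-S (SD, n = 3 each).

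On the log2 scale the MBNL3 difference was -4.64 (SE 0.25) between Huh7-R-A7 and Huh7-S, or 24.9-fold lower in the clone. The gap between the nearest arrays of these groups was 4.08. Between Huh7-R and Huh7-S the difference was -1.09 (SE 0.25), or 2.13-fold lower in the pool, with a gap of 0.77. Between Huh7-R-A7 and Huh7-R it was -3.55 (SE 0.25), or 11.7-fold lower in the clone. Ordered by difference, MBNL3 was in place 7 from the bottom of the 9784 genes in clone against parental cells, in place 2 in clone against pool and in place 474 in pool against parental cells. In a bulk RNA sample, fewer cells that express a gene and less of its RNA per cell cannot be told apart, and this holds for the pool value of MBNL3 in particular, since a pool may mix cells. The size of the differences depended on a few arrays. Without Huh7-S array 1, the highest of the 9, they were -4.35 for clone against parental cells and -0.80 for pool against parental cells. With array 1 as the only Huh7-R-A7 array they were -5.01 against Huh7-S and -3.92 against Huh7-R.

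**Figure D1:**
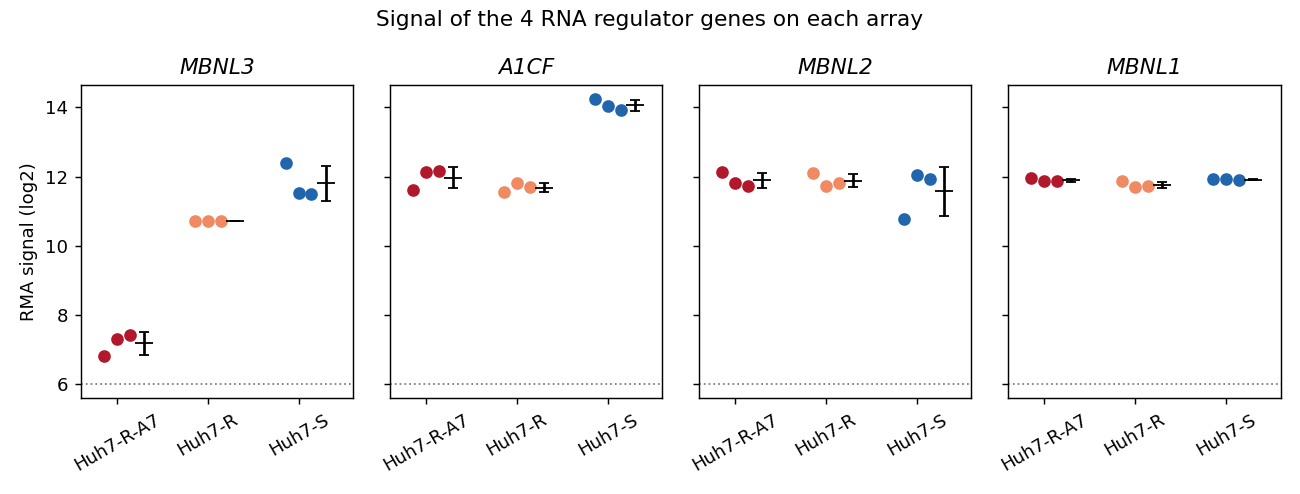
RMA signal (log2, y axis) of MBNL3, A1CF, MBNL2 and MBNL1 on each of the 9 arrays, with 1 point per array, the mean and SD of the 3 arrays as a horizontal mark and bar, and a dotted line at log2 6. MBNL3 is lowest in Huh7-R-A7, higher in Huh7-R and highest in Huh7-S, A1CF is lower in both resistant groups, and the MBNL2 and MBNL1 points lie close together except for Huh7-S array 1 of MBNL2 at 10.77.

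A1CF was lower in both resistant groups to a like extent. Its signal was log2 11.62, 12.14 and 12.15 on the Huh7-R-A7 arrays, 11.54, 11.82 and 11.69 on the Huh7-R arrays, and 14.24, 14.04 and 13.93 on the Huh7-S arrays. Every resistant array was below every parental array, while the arrays of clone and pool overlapped. The means were 11.97 ± 0.30 in Huh7-R-A7, 11.68 ± 0.14 in Huh7-R and 14.07 ± 0.16 in Huh7-S (SD, n = 3 each).

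The A1CF difference was -2.10 (SE 0.16) between Huh7-R-A7 and Huh7-S, or 4.29-fold lower in the clone, with a gap of 1.78 between the nearest arrays. It was -2.39 (SE 0.16) between Huh7-R and Huh7-S, or 5.24-fold lower in the pool, with a gap of 2.11. Between clone and pool the difference was 0.29 (SE 0.16), which is less than the clone's own SD. A1CF was in place 103 from the bottom of all genes in clone against parental cells and in place 55 in pool against parental cells. With array 1 as the only clone array, its difference was -2.45 against Huh7-S and -0.06 against Huh7-R. Thus A1CF was as low in the pool as in the clone, whereas most of the MBNL3 difference lay between pool and clone.

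MBNL2 showed no separation between groups. Its signal was log2 12.14, 11.81 and 11.72 on the Huh7-R-A7 arrays, 12.09, 11.74 and 11.81 on the Huh7-R arrays, and 10.77, 12.04 and 11.92 on the Huh7-S arrays. The means were 11.89 ± 0.22 in Huh7-R-A7, 11.88 ± 0.19 in Huh7-R and 11.57 ± 0.70 in Huh7-S (SD, n = 3 each). Huh7-S array 1 was the lowest of the 9 arrays by far, and the groups overlapped in all 3 comparisons. The difference from Huh7-S was 0.31 (SE 0.32) in the clone and 0.30 (SE 0.32) in the pool. Without Huh7-S array 1 both changed direction, to -0.09 in the clone and -0.10 in the pool. Between clone and pool the difference was 0.01 (SE 0.32).

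MBNL1 varied least, by 0.25 log2 units over the 9 arrays, against 5.60 for MBNL3, 2.71 for A1CF and 1.37 for MBNL2. Its signal was log2 11.95, 11.87 and 11.87 on the Huh7-R-A7 arrays, 11.87, 11.69 and 11.72 on the Huh7-R arrays, and 11.92, 11.92 and 11.90 on the Huh7-S arrays. The clone overlapped both other groups, and the pool lay below the parental arrays by a gap of 0.03 only. The means were 11.89 ± 0.046 in Huh7-R-A7, 11.76 ± 0.095 in Huh7-R and 11.91 ± 0.014 in Huh7-S (SD, n = 3 each). The difference from Huh7-S was -0.02 (SE 0.06) in the clone and -0.15 (SE 0.06) in the pool, and clone minus pool was 0.14 (SE 0.06). MBNL1 had 7 different values on the 9 arrays, because clone arrays 2 and 3 and pool array 1 held exactly the same value. MBNL2 had 8, with clone array 2 equal to pool array 3, and MBNL3 and A1CF had 9 each. Such equal values were common in the deposited table, at 60% of its 11013 probe sets, and can make a group's SD too small.

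Within the MBNL family the differences in MBNL3 were therefore not matched by differences of like size in MBNL1 or MBNL2. Signals of different probe sets are not on a common scale, so the level of one family member was not set against another. Each value reads a whole gene and does not tell which exons its mRNA holds.

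Large numbers of genes differed between these cells, and the 4 genes have to be read against them. With Huh7-R-A7 set against Huh7-S, 2 of the 4 genes (MBNL3 and A1CF) were among those lower at an adjusted p below 0.05 in limma with Benjamini-Hochberg adjustment, as were 24.6% of all genes, and none was among the 18.0% that were higher. The arrays of the same 2 genes did not overlap, which was true downward for 30.2% of all genes. In Huh7-R against Huh7-S, 2 of the 4 (again MBNL3 and A1CF) were lower by the test, against 26.2% of all genes, and none was among the 19.0% higher. Here 3 of the 4 did not overlap downward, MBNL1 included, against 30.1% of all genes. In Huh7-R-A7 against Huh7-R, MBNL3 alone was lower by the test, against 4.52% of all genes, and none was among the 4.11% higher. MBNL3 was also the only one of the 4 without overlap in that comparison, against 16.4% of all genes downward. The order of every clone array below every pool array and every pool array below every parental array was met by MBNL3 and by 4.92% of all genes, 481 in number. The 2 comparisons with Huh7-S share its arrays, and the 4 genes had been chosen on these values, so the counts are no evidence about them as a group. How the passing genes split by direction depended on scaling. In clone against parental cells 42.2% of passing genes were higher as deposited, 52.8% after each array was centred on its median and 50.4% after cyclic loess. In pool against parental cells these shares were 42.0%, 52.4% and 50.7%.

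**Figure D2:**
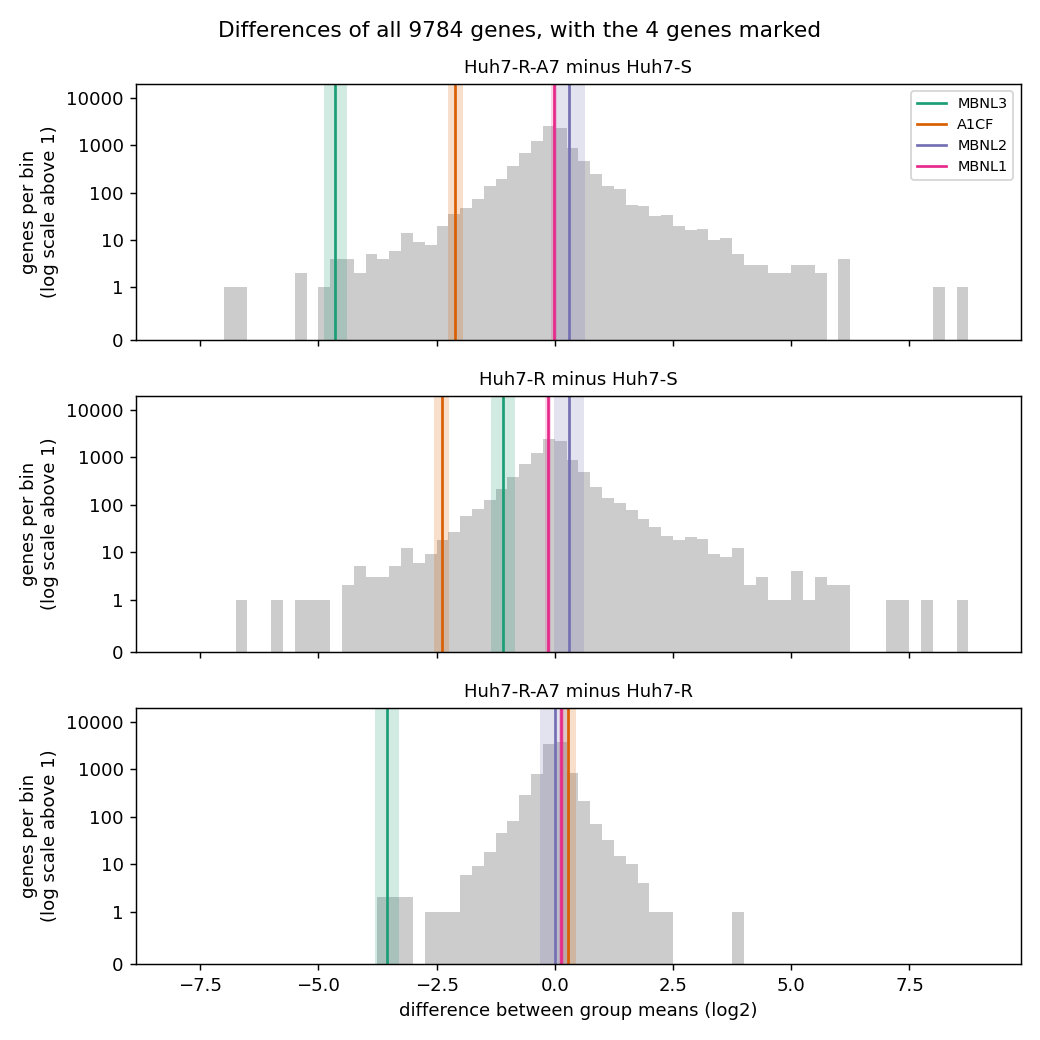
Histograms of the difference between group means (log2, x axis) for 9784 genes in the 3 comparisons, with the number of genes per bin on a y axis that is logarithmic above 1; colored lines mark the 4 genes and shaded bands their SE. MBNL3 lies in the lower tail at -4.64, -1.09 and -3.55, A1CF at -2.10 and -2.39 in the 2 comparisons with Huh7-S and at 0.29 in the third, and MBNL2 and MBNL1 near 0.

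Genes whose signal ran most like that of each member were named by Pearson's r over the 9 arrays, among 1472 genes with an SD of at least 0.5. As the arrays fall into 3 groups, r mostly reflects the group means and is given as a description. Nearest to MBNL3 were ACO1 (r = 0.99), a cytosolic aconitase that also binds iron-responsive RNA elements, ITGA1 (0.984), an integrin chain that binds collagen, and RIGI (0.977), a sensor of viral RNA. ACO1 averaged 9.32 in Huh7-R-A7, 10.31 in Huh7-R and 10.65 in Huh7-S, the same order as MBNL3 over a smaller range. ITGA1 averaged 9.81 in Huh7-R-A7, 10.93 in Huh7-R and 11.28 in Huh7-S. RIGI averaged 5.82 in Huh7-R-A7, which is below the noise limit, 6.64 in Huh7-R and 7.03 in Huh7-S.

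Nearest to A1CF were PLCXD1 (r = 0.998), CFAP47 (0.996), a cilium protein, and PGAP1 (0.994), which trims the lipid anchor of membrane proteins. PLCXD1 averaged 6.74 in Huh7-R-A7, 6.59 in Huh7-R and 8.47 in Huh7-S. Clone and pool were thus alike and both below the parental cells, as for A1CF. PGAP1 averaged 7.71 in Huh7-R-A7, 7.60 in Huh7-R and 8.89 in Huh7-S. CFAP47 was below the noise limit in both resistant groups, at 5.00 in Huh7-R-A7 and 4.69 in Huh7-R, and averaged 6.87 in Huh7-S. It was thus in the table only through Huh7-S arrays, and its likeness to A1CF was bound up with the filter. For MBNL2 the nearest were TSPAN2 (r = 0.968), VTRNA1-1 (0.95) and P3H2 (0.94), and for MBNL1 they were ESF1 (0.959), ABCE1 (0.934) and ESCO2 (0.929). The MBNL1 likeness rests on a range of 0.25 log2 units. Among the 4 genes themselves r over the 9 arrays was 0.601 for MBNL3 with A1CF and lay between -0.472 and 0.485 for the other 5 pairs.

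**Figure D3:**
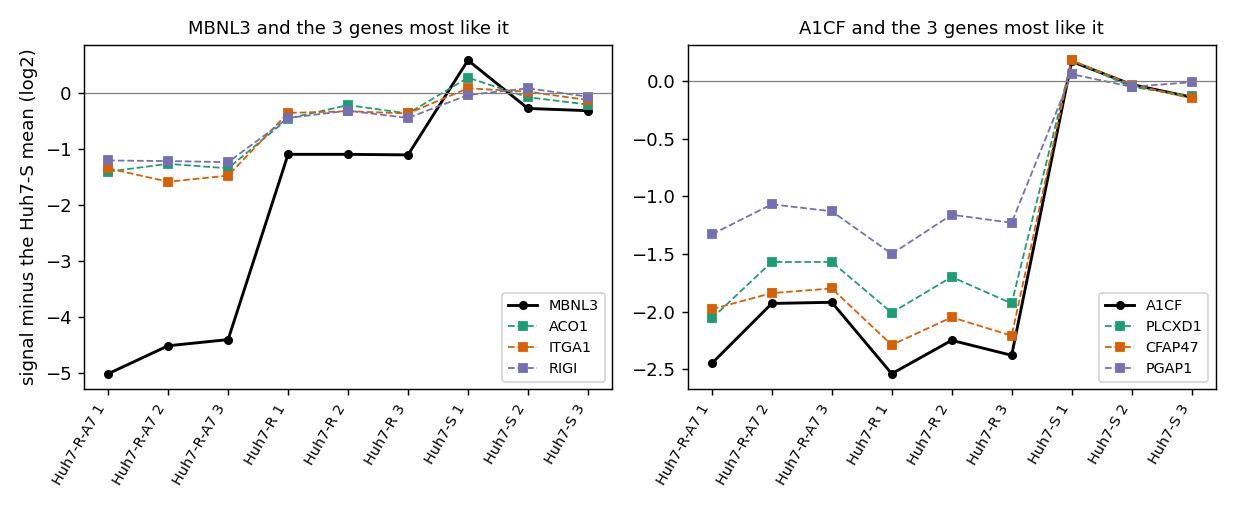
Signal minus the Huh7-S mean (log2, y axis) on each array (x axis) for MBNL3 with ACO1, ITGA1 and RIGI in the left panel and for A1CF with PLCXD1, CFAP47 and PGAP1 in the right panel; lines join the arrays of a gene only to guide the eye. The 3 genes in the left panel lie between -1.21 and -1.46 in the clone on average, against -4.64 for MBNL3, and the genes in the right panel are low in clone and pool alike.

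A1CF works with a set of partners and on a few known mRNAs. Of 15 genes listed for APOBEC1, A1CF partners and relatives, and edited mRNAs, 10 were measured. In Huh7-R-A7 against Huh7-S, 5 fell, 1 rose and 4 did not pass, with a median of -0.21. Of all genes 24.6% fell and 18.0% rose, with a median of -0.035. Without Huh7-R-A7 array 1, or without Huh7-S array 3, 3 fell and none rose. Of all 9784 genes 2078 fell and 1530 rose without the clone array, and 2474 fell and 1494 rose without the parental array. APOBEC1, the editing enzyme, was not analysed here. APOB, whose mRNA is the substrate that defined the complex, was at 12.35, 14.31 and 14.41 in Huh7-R-A7, 14.23, 14.73 and 14.76 in Huh7-R, and 17.56, 16.65 and 16.61 in Huh7-S. Every resistant array was below every parental array, and clone array 1 was the lowest of all. APOB fell by 3.25 in the clone (SE 0.55, adjusted p = 0.0021, limma) and fell by 2.37 in the pool (SE 0.55, adjusted p = 0.0094, limma), and is also a hepatocyte marker. Its difference in the clone was -2.58 without Huh7-R-A7 array 1 and -4.59 with that array as the only clone array. A change in signal says nothing of how much of the mRNA was edited.

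HNRNPAB, which binds both APOBEC1 and the APOB mRNA, fell by 0.67 in the clone (SE 0.14, adjusted p = 0.0061, limma) and fell by 0.94 in the pool (adjusted p = 0.0011). HNRNPR, a close relative of SYNCRIP, fell by 0.60 in the clone (SE 0.10, adjusted p = 0.0023, limma) and fell by 0.44 in the pool (adjusted p = 0.0096). SYNCRIP itself, another binder of APOBEC1 and A1CF, rose by 0.25 in the clone (SE 0.07, adjusted p = 0.023, limma) and differed by 0.11 in the pool (adjusted p = 0.27). The SYNCRIP call in the clone was lost without Huh7-R-A7 array 1 (adjusted p = 0.058) and without Huh7-S array 3 (adjusted p = 0.059). RBM47, which can serve as cofactor of APOBEC1 in mice, differed by 0.02 in the clone (SE 0.08, adjusted p = 0.90, limma) and by 0.20 in the pool (adjusted p = 0.080), where it passed after median centring, at 0.28 (adjusted p = 0.020), and after cyclic loess, at 0.30 (adjusted p = 0.018). NF1, whose mRNA is edited in some tumors, fell by 0.54 in the clone (SE 0.17, adjusted p = 0.031, limma), and its 3 pool arrays had the same value. That call was lost under 10 of the alternatives at the threshold of 0.05, with each array centred on its median among them (adjusted p = 0.061). In pool against parental cells 3 of the 10 genes fell and none rose, with a median of -0.26, while of all genes 26.2% fell and 19.0% rose, with a median of -0.033. After median centring or cyclic loess 1 of the 10 rose, and without Huh7-S array 1, 5 fell. Of all 9784 genes 2423 rose after median centring and 2338 after cyclic loess, and 2592 fell without that array. Of 17 other RNA and DNA deaminases only 5 were measured, with a median of -0.12 in the clone and -0.17 in the pool. CDADC1, a protein with a cytidine deaminase domain, fell by 0.28 in the clone (SE 0.05, adjusted p = 0.0032, limma) as the only one of the 5 to pass (2 passed without Huh7-R-A7 array 2 or without Huh7-R array 1), and in the pool CDADC1 and ADAT1, which deaminates a tRNA adenosine, both fell.

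MBNL proteins share exons with other splicing regulators. Of 28 such genes, with the repeat genes DMPK and CNBP included, 11 were measured, and in Huh7-R-A7 against Huh7-S 5 fell and 1 rose, with a median of -0.18, beside 24.6% and 18.0% of all genes and their median of -0.035. CNBP, a zinc finger protein whose gene carries the expanded repeat of myotonic dystrophy type 2, fell by 0.70 in the clone (SE 0.10, adjusted p = 0.00080, limma) and fell by 0.65 in the pool (adjusted p = 0.0012). The RNA helicase DDX17 fell by 0.62 in the clone (SE 0.06, adjusted p = 0.00011, limma) and fell by 0.26 in the pool (adjusted p = 0.0071), where it did not pass after median centring (-0.19, adjusted p = 0.068). PTBP2, which represses exons, and HNRNPF, which binds G-rich RNA, fell in the clone by 0.53 and 0.40. RBFOX2, which binds near many alternative exons, rose by 0.26 in the clone (SE 0.06, adjusted p = 0.0077, limma). CELF1, which opposes MBNL proteins at several exons, differed by -0.18 in the clone (adjusted p = 0.099, limma) and QKI by -0.02 (adjusted p = 0.83). PTBP1 and CELF2 were not analysed here. In pool against parental cells 4 fell and 2 rose, with a median of -0.21, beside 26.2% and 19.0% of all genes. After median centring 2 fell and 2 rose, while of all 9784 genes 2197 fell and 2423 rose.

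Exon targets of MBNL proteins were read only as whole genes. Of 22 mRNAs listed for exons that depend on MBNL proteins in human or mouse cells, PXN included, 11 were measured. In clone against parental cells 4 fell and none rose, with a median of -0.22, beside 24.6% and 18.0% of all genes. After median centring, and also without Huh7-S array 1, 3 fell and 1 rose. Of all 9784 genes 2091 fell and 2341 rose after the centring, and 2481 fell and 1979 rose without that array. BIN1, a membrane-bending protein, was at 6.23, 6.33 and 6.32 in Huh7-R-A7, at 6.77 on all 3 Huh7-R arrays and at 6.95, 7.77 and 7.74 in Huh7-S. The 3 groups did not overlap. BIN1 fell by 1.19 in the clone (SE 0.20, adjusted p = 0.0020, limma), but its equal pool values may make the fitted spread too small. MAP4K4, a kinase of cell migration, was at 10.61, 10.51 and 10.49 in Huh7-R-A7, 10.98, 11.00 and 10.98 in Huh7-R, and 11.27, 11.50 and 11.42 in Huh7-S. It fell by 0.86 in the clone (SE 0.07, adjusted p = 5.1e-05, limma). ITGA6, a laminin-binding integrin chain, fell by 0.32 in the clone (SE 0.05, adjusted p = 0.0019, limma). In BIN1, MAP4K4 and ITGA6 every clone array was below every pool array and every pool array below every parental array. This order was met by MBNL3 and by 4.92% of all genes, and a link to MBNL3 was not tested. INSR, the insulin receptor, differed by -0.22 (adjusted p = 0.20) and PXN, the adhesion protein paxillin, by 0.08 (adjusted p = 0.39). NUMA1, a spindle protein, held only 3 different values and differed by less than 0.01 between groups. CLASP1, which binds microtubule ends, fell by 0.22 in the clone (adjusted p = 0.041, limma), a call lost under 10 of the alternatives at the threshold of 0.05. Among these were median centring (adjusted p = 0.20), cyclic loess (adjusted p = 0.13), the omission of any 1 clone array (adjusted p = 0.073 to 0.11) and that of any 1 parental array (adjusted p = 0.072 to 0.099). In the pool CLASP1 rose by 0.31 (SE 0.07, adjusted p = 0.0095, limma). In pool against parental cells 3 of the 11 genes fell and 2 rose, with a median of -0.02, beside 26.2% and 19.0% of all genes. Without Huh7-R array 3, 2 fell and 1 rose, while of all 9784 genes 1897 fell and 1495 rose.

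The CCCH zinc finger that MBNL proteins use to bind RNA is shared by many other regulators of mRNA decay and processing. Of 45 such genes 35 were measured. In clone against parental cells 16 fell, 6 rose and 13 did not pass, with a median of -0.21, beside 24.6% and 18.0% of all genes. ZFP36L2 and ZFP36L1, which bind AU-rich elements and speed mRNA decay, fell by 1.22 (SE 0.14, adjusted p = 0.00033, limma) and 0.63 (SE 0.10, adjusted p = 0.0015). ZC3HAV1L fell by 0.92 (SE 0.08, adjusted p = 9.9e-05, limma). PAN3, a subunit of a deadenylase, rose by 0.95 (SE 0.10, adjusted p = 0.00022, limma), and TIPARP, an ADP-ribosyltransferase, rose by 0.90 (SE 0.08, adjusted p = 7.1e-05, limma). PAN3 and TIPARP rose in the pool as well, by 1.02 (adjusted p = 0.00017, limma) and 0.87 (adjusted p = 9e-05). In pool against parental cells 13 of the 35 fell and 7 rose, with a median of -0.22, beside 26.2% and 19.0% of all genes. None of the 35 changed as much as MBNL3 in the clone. MBNL3 was chosen with its values known and was in place 7 from the bottom of all genes, so this does not set it apart from them. The counts of this list depended on scaling: after centring each array on its median, 9 fell and 7 rose in the clone. Of all 9784 genes 2091 fell and 2341 rose in that fit. They also depended on the clone arrays: without array 3, 10 fell and 4 rose, while of all 9784 genes 1921 fell and 1466 rose.

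**Figure D4:**
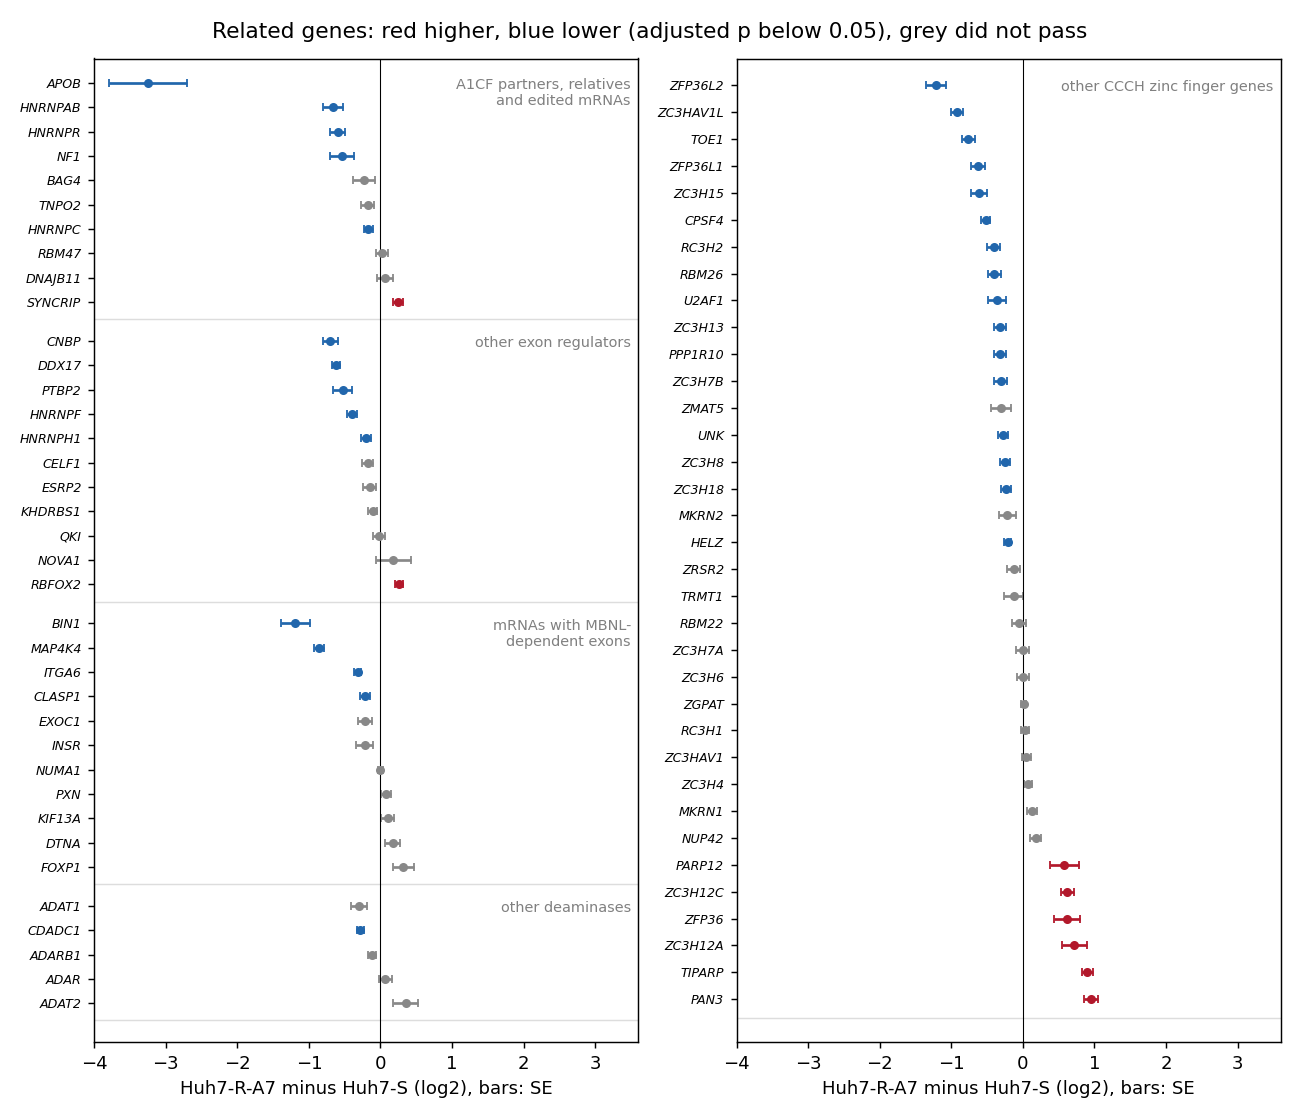
Difference between Huh7-R-A7 and Huh7-S (log2, x axis; points with SE bars) for the measured genes of the 5 lists, one row per gene, with red for genes that rose and blue for genes that fell at an adjusted p below 0.05 and grey for genes that did not pass. APOB lies farthest left at -3.25, while PAN3 at 0.95 and TIPARP at 0.90 are farthest right.

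Between clone and pool, where the MBNL3 difference was -3.55, 4.52% of all genes fell and 4.11% rose. Of the exon regulators 2 fell and none rose, of the CCCH genes 4 fell and 1 rose, of the MBNL exon targets 2 fell and none rose, and of the A1CF partners and the deaminases none passed. Of the CCCH genes 2 or 3 passed without any 1 of the clone arrays, without Huh7-R array 2 or 3 or without Huh7-S array 3. Of all 9784 genes 844 passed with every array in the fit. Without Huh7-R-A7 array 1, 2 or 3 there were 523, 452 and 482. There were 410 and 393 without Huh7-R array 2 or 3, and 780 without Huh7-S array 3. ESRP2, an epithelial splicing regulator, was at 6.97, 7.06 and 7.04 in Huh7-R-A7 and 7.68, 7.74 and 7.39 in Huh7-R, and clone minus pool was -0.58 (adjusted p = 0.0094, limma). MAP4K4 was lower in the clone, with a clone minus pool difference of -0.45 (SE 0.07, adjusted p = 0.0074, limma), and so was CLASP1, at -0.52 (SE 0.07, adjusted p = 0.0047). None of these 9 calls remained when array 1 was the only clone array, though the differences were of like size, at -0.64 for ESRP2, -0.38 for MAP4K4 and -0.57 for CLASP1. The MBNL3 difference was -3.92 there.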

How the data were processed

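RNA of Huh7-R-A7, Huh7-R and Huh7-S was measured on 9 Affymetrix Human Transcriptome Arrays, 3 for each. Per the labels, the authors used Affymetrix Expression Console to run RMA, a robust average over the probes of a set, and deposited log2 signal values of 11013 probe sets. Neither the program's version nor the genome build is given in the sources used here. RMA brings all arrays to a common distribution, which would hide a change shared by all genes. Sample titles gave the groups.

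A single gene symbol was annotated to 9851 probe sets, several to 624 and none here to 538. After 77 symbols were brought up to date with the RefSeq gene table, 67 genes had more than 1 probe set, whose values were averaged, and 9784 genes resulted. The study's filter (signal under log2 6 on over 85% of arrays) removed 0 probe sets, so the deposited table held none that failed it. A listed gene counted as not measured can be absent for low signal or because its probe set was not used here. All genes means the 9784 genes of this table and not all genes on the array. Comparisons were fitted with limma 3.58.1 (R 4.3.3; lmFit, then eBayes with a trend on intensity). All 9 arrays entered with the group as sole term, which left 6 degrees of freedom for the residuals. Two-sided p-values were adjusted over all genes by the Benjamini-Hochberg method with a threshold of 0.05. The fit stands in for the moderated statistic of the study's methods and was tested on simulated data. Precision is limited by the number of arrays, 3 in each group.

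The 4 genes and the gene lists were chosen with earlier results of these data known. The 4 genes got no p, and lists were described by counts and medians. Of each list, the text names up to 4 genes with the largest difference in clone against parental cells and 2 in clone against pool among those past the threshold, and further genes fixed by name. ADAT1 was named after its values were seen. Genes on probe sets with several symbols were not used. Alternatives were other scalings (median centring, cyclic loess), other variance priors, only the groups compared, the replicate number as a block, other rules for probe sets and low signal, a stricter threshold of 0.01, values below log2 6 set to 6, group medians, and each array left out in turn. A fit of genes with 9 different values, a fit with array 1 as the only clone array and a fit of replicates 2 and 3 of each group were added after the data were seen.

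Replicate numbers are shared by the groups. Deviations of same-numbered Huh7-R-A7 and Huh7-R arrays from their group means correlated across genes at 0.60, 0.49 and 0.42, so numbers pair these groups. The labels do not name a day or batch that would pair them. Neither group paired with Huh7-S, at -0.21 to -0.07 for the clone and -0.11 to 0.10 for the pool. Tables and figures were made in Python 3.11.15 (pandas 2.3.3, matplotlib 3.10.9). Sequences are RefSeq's, with GRCh38.p14 coordinates.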

Additional observations from a re-analysis of the deposited data

Results flagged for a closer look

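Of the genes listed as related to MBNL3 and A1CF, 9 differed between Huh7-R-A7 and Huh7-R by the test of that difference (limma, Benjamini-Hochberg adjusted p). Their differences from the shared Huh7-S arrays were thus unequal in clone and pool. By the naming rule 6 of the 9 are described below. The rest were ZC3H6 at -0.36 (adjusted p = 0.037), HELZ at -0.23 (adjusted p = 0.04) and MKRN2, higher in the clone, at 0.52 (adjusted p = 0.036). Clone minus pool was -0.36 for DDX17 (adjusted p = 0.009), -0.58 for ESRP2 (adjusted p = 0.0094), -0.69 for ZC3HAV1L (adjusted p = 0.003), -0.60 for ZFP36L1 (adjusted p = 0.01), -0.45 for MAP4K4 (adjusted p = 0.0074) and -0.52 for CLASP1 (adjusted p = 0.0047). In each of these 6, every clone array was below every pool array, as in 16.4% of all genes. The 6 were named for the size of this difference, so that separation adds nothing to it. ESRP2 and CLASP1 rose in the pool against Huh7-S, by 0.43 and 0.31. With array 1 as the only clone array none of the 6 passed, while the differences were of like size: -0.41 for DDX17 (adjusted p = 0.064), -0.64 for ESRP2 (0.10), -0.66 for ZC3HAV1L (0.080), -0.54 for ZFP36L1 (0.16), -0.38 for MAP4K4 (0.13) and -0.57 for CLASP1 (0.073). That fit takes the spread from the other groups. Replicates 2 and 3 alone left ESRP2 at an adjusted p of 0.055.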

How the results depend on the processing

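No result turned its direction past a threshold. Of 152 values of the 4 genes' differences under the alternatives, 141 moved by less than 1 SD of the replicates. Many of these could not have moved further, so the count is no measure of stability. Raising low values to the noise limit changed nothing, because no array of the 4 genes was below it. The choice among probe sets changed nothing either, because each gene had 1. Leaving out 1 of 3 arrays moves a group mean by less than the SD of those arrays, whatever the values. With replicates 2 and 3 of each group, clone against parental cells gave -4.16 for MBNL3, -1.84 for A1CF and -0.21 for MBNL2, and pool against parental cells -2.23 for A1CF. With array 1 as the only clone array, A1CF was at -2.45 and MBNL1 at 0.03 against Huh7-S, and MBNL3 at -3.92, A1CF at -0.06 and MBNL2 at 0.26 against Huh7-R. Median centring put MBNL1 at 0.05 in the clone and -0.08 in the pool against Huh7-S. Leaving out 1 array at a time, MBNL3 ranged from -4.80 to -4.35 in clone against parental cells, -1.25 to -0.80 in pool against parental cells and -3.67 to -3.37 in clone against pool. In the same order A1CF ranged from -2.19 to -1.93, from -2.46 to -2.30 and from 0.20 to 0.46, MBNL2 from -0.09 to 0.54, from -0.10 to 0.54 and from -0.12 to 0.11, and MBNL1 from -0.05 to -0.01, from -0.21 to -0.12 and from 0.10 to 0.19.

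Of all genes 4174 passed in clone against parental cells, 2542 of those with 9 different values, 2342 with array 1 as the only clone array and 2779 at an adjusted p below 0.01. Counts of list genes there were 39, 19, 19 and 22. In pool against parental cells 4416 passed, 2652 with 9 different values and 2919 at 0.01, and the list genes numbered 36 and, with 9 different values, 16. In clone against pool 844 passed, 384 with 9 different values, 239 with array 1 as the only clone array, 1810 with replicates 2 and 3 and 329 at 0.01. List genes there were 9, then 4 with 9 different values, 0 with the lone clone array and 5 at 0.01. Leaving out 1 array at a time gave 3387 to 4460, 3392 to 4608 and 393 to 1330 genes in the 3 comparisons, the highest without Huh7-S array 1, and 393 to 523 in the last without any 1 of the clone arrays or without Huh7-R array 2 or 3. List genes ranged from 27 to 38, 29 to 38 and 6 to 12. The cause of these shifts was not tested, but the fit of genes with 9 different values tests fewer genes, 3925 against 9784. Its lower counts therefore do not show that calls were lost. In each of the 3 comparisons a larger share of the 3925 genes passed than of the 9784. List genes were fewer there too. That fit held 14 of the 35 CCCH genes, 4 of the 11 exon regulators and 5 of the 10 A1CF partners. It held 1 of the 11 MBNL exon targets and 0 of the 5 deaminases. With the replicate number as a block 4364, 4569 and 1011 genes passed, with 36, 37 and 10 list genes. In that fit RBFOX2 in pool against parental cells (adjusted p = 0.052) no longer passed while ZFP36L2 in clone against pool (adjusted p = 0.018) did. The block ran over all 9 arrays, although numbers did not pair Huh7-S with the other groups. A fit of the pairing of clone and pool alone was not made. Of 81 results for named genes 30 changed their call under some alternative at the threshold of 0.05 and 0 reversed. The stricter threshold of 0.01 was applied to counts of genes only. With array 1 as the only clone array HNRNPAB (-0.61, adjusted p = 0.12), PTBP2 (-0.49, 0.18), CDADC1 (-0.27, 0.068) and ZFP36L1 (-0.57, 0.056) no longer passed against Huh7-S, with differences close to those of all arrays. ITGA6 in pool against parental cells no longer passed after median centring (adjusted p = 0.11) or cyclic loess (0.12).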
